A study of Mus musculus with 4 samples.

Results

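The organic ion transporters of the Slco and Slc22 families were described in single cells of mouse liver. Members were all rows of the deposited gene table whose symbol begins with Slco or Slc22a followed by a digit, which gave 39 genes, 14 Slco and 25 Slc22, of 31053 in the table. The livers came from a gene-induced model of hepatocellular carcinoma (HCC). Tumor tissue was sampled once at each of 3 times, in HCC-ES from week 4, HCC-MS from week 8 and HCC-LS, for which the sample label gives week 10 but the text of the series week 12, and normal liver once at week 0, as HCC-NL. The induced gene, strain, sex and age of the mice and the number of mice behind each sample are not given in the sources used here. All 4 samples were digested to single cells after red cell lysis and measured with a droplet 3′ kit, in which a UMI is 1 counted RNA molecule.

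The Slco genes encode the organic anion transporting polypeptides, which take up bile acids, steroid and thyroid hormone conjugates, prostaglandins and many drugs without sodium. The Slc22 genes encode carriers of organic cations, of zwitterions such as carnitine and ergothioneine, and of organic anions. In liver the best known members sit on the blood-facing membrane of hepatocytes, where they help to clear bile acids and drugs from portal blood. Many other members work mainly in kidney, brain, testis or vessel walls.

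The deposited matrix joins 4 libraries, told apart by a barcode suffix of 1 to 4, and no source used here pairs a suffix with a sample. The weeks were therefore not compared, the matrix was taken as 1 pooled sample without replicates, and a library is named by its number, with no test between libraries. The libraries held 15593960 to 49975828 UMIs each, and 34783 cells with a median of 1767 UMIs were analysed after filtering and removal of 3.78% of barcodes as doublets. Among the barcodes, 710 cell barcode sequences occurred in more than 1 library. Of 24 clusters, 23 fell into 13 classes named from marker genes, and 1 cluster of 2403 cells that carried B cell as well as plasma cell markers stayed unnamed. Vascular endothelial clusters 7 and 17 scored highest for sinusoidal markers, and Kupffer cell cluster 13 for macrophage markers. They were named instead from the class with more markers among their 10 leading genes. Hepatocyte-like cells were 20327 (58.4%), with 13 of 13 hepatocyte markers detected and a median of 1498, 4911, 1344 and 3452 UMIs in libraries 1 to 4. Intervals are given at 95% throughout and take in no error but that of counting.

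To show the upstream sequence of the members on which the results turn, windows of 300 bases, from 250 before to 50 after the annotated start, are given for the most abundant hepatocyte carrier (Slco1b2), a second Slco1 gene of the same chromosome (Slco1a4), the member with the largest difference along the zonation axis (Slc22a3) and the leading endothelial member (Slco2a1). They are RefSeq sequences of build GRCm38.p6, matched by symbol, at chr6:141629268-141629567 on the plus strand for Slco1b2, chr6:141856171-141856470 on the minus strand for Slco1a4, chr17:12507655-12507954 on the minus strand for Slc22a3 and chr9:103008237-103008536 on the plus strand for Slco2a1, each written 5′ to 3′ with matched motifs in capitals.
Slco1b2: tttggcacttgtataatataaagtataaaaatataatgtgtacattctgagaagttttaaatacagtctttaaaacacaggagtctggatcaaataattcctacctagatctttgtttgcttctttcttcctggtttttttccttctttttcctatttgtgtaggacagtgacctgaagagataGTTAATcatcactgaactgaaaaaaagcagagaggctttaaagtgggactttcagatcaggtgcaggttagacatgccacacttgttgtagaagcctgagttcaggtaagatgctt
Slco1a4: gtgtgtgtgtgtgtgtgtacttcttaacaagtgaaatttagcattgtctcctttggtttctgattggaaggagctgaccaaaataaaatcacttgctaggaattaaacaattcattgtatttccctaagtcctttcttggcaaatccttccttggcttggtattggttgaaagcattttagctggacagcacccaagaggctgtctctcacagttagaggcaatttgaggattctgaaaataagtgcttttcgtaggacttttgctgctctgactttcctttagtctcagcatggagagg
Slc22a3: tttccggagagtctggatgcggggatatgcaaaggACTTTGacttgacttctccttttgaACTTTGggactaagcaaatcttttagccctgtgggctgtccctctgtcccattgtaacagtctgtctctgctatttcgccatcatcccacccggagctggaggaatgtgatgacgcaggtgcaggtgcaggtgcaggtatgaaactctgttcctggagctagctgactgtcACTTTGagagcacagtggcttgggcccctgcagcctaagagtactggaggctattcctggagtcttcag
Slco2a1: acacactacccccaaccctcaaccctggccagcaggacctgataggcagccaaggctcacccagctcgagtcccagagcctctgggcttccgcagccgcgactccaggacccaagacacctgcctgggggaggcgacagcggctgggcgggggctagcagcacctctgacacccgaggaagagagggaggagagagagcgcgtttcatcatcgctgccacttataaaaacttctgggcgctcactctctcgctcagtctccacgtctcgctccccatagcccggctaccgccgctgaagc
Windows of 34 of the 39 members were searched on both strands for 4 short motifs, which were chosen after longer forms matched none of these 4 windows. They were the HNF1 core GTTAAT, the HNF4 core CAAAGT and the TCF cores CTTTGAT and CTTTGAA; the last 3 overlap in the letters CTTTG or their reverse. The Slco1b2 window held GTTAAT 66 bases before the start, a motif found in 7.10% of the 32851 windows of the table. The Slc22a3 window held ACTTTG, the reverse of CAAAGT, at 215, 190 and 19 bases before the start, and 14.4% of all windows held this motif. The Slco1a4 and Slco2a1 windows held none of the 4 motifs. The matches describe letters, not binding sites.

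Few members carried most of the signal. Of the 39 genes, 19 had at least 100 UMIs in the analysed cells, 12 had 1 to 99 and 8 had none, and the 19 were 7 Slco and 12 Slc22 genes. The members together held 50853 UMIs, 65.8% of them of Slco genes. Slco1b2 (ENSMUSG00000030236), an uptake carrier of bile acids, conjugated bilirubin and statin drugs in mouse hepatocytes, held 28353. These are counts of 3′ tags, so they compare tags and not protein. Levels below are UMIs of the gene per 1000000 UMIs (CPM) of the cells named.

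Of the 19 members, 8 were highest in hepatocyte-like cells, where 12.8% of the 13461 genes with at least 100 UMIs were highest. Among them were Slco1b2, Slco1a4, Slco1a1, Slc22a7, Slc22a18, Slc22a27 and Slc22a30. The lead over the second class is not fixed for Slc22a18 (1.56-fold, 0.716 to 4.27), Slco1a1 (1.43-fold, 0.610 to 4.42), Slc22a7 (1.74-fold, 0.586 to 8.501) and Slc22a27 (2.81-fold, 0.939 to 13.8), whose intervals include 1. Sinusoidal endothelial cell-like cells led for Slco2a1 and Slc22a5 (12.3% of all genes were highest there), neutrophil-like cells for Slc22a15 and Slc22a3 (3.63% of all genes) and erythroid-like cells for Slc22a23 and Slc22a4 (17% of all genes). Plasmacytoid dendritic cell-like cells led for Slco4a1 and, with 1 UMI, for Slc22a29 (7.17% of all genes). Macrophage-like cells led for Slco2b1 (2.59% of all genes), Kupffer cell-like cells for Slc22a17 (6.52% of all genes) and stellate cell- or fibroblast-like cells for Slco3a1 (7.16% of all genes).

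**Figure D1:**
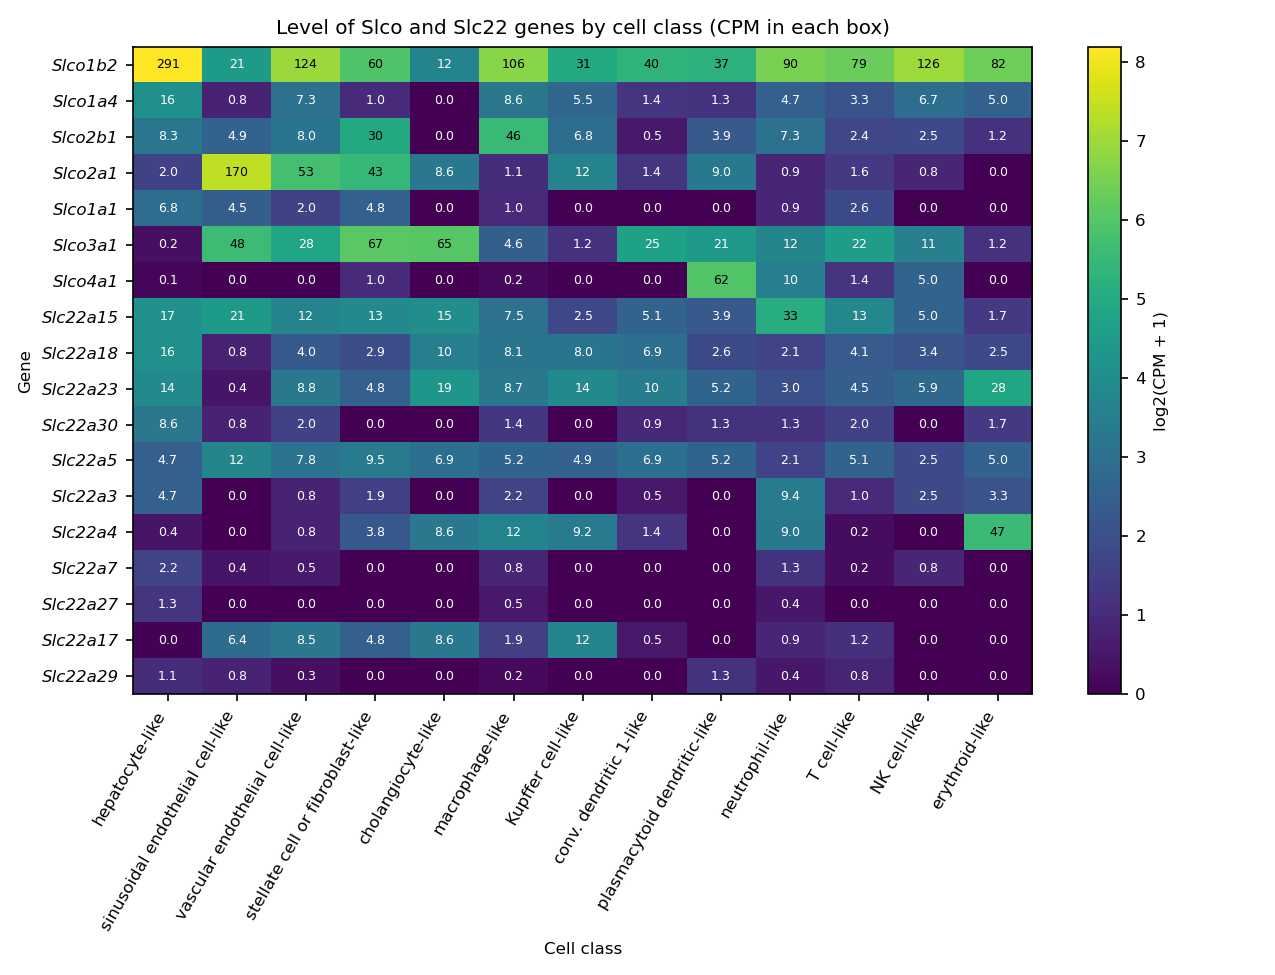
Level of 18 Slco and Slc22 genes with at least 100 UMIs in 13 cell classes; each box gives the CPM and its colour log2(CPM + 1). Slco1b2 had its highest level in hepatocyte-like cells (291 CPM) and was above 0 in every class, while Slco2a1 peaked in sinusoidal endothelial cell-like cells and Slco4a1 in plasmacytoid dendritic cell-like cells.

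A gene was called higher or lower in one of 2 sets of cells when both sets together held at least 100 UMIs of it, its CPM differed at least 2-fold, the interval of the ratio excluded 1, and no library with at least 20 cells on both sides went the other way. This is a rule of size and not a test between samples. Between hepatocyte-like cells and all other named classes, 18 members could be read. In hepatocyte-like cells 9 were called higher, against 13.7% of all 13300 genes read, and 4 were called lower, against 36.2% of all genes. The median log2 ratio was 1.49 for the 18 members and -0.51 for all genes, and scaling by the median of ratios would take a shift of -0.50 out of every log2 ratio, which would turn the sign of Slc22a5 below. Malat1, an RNA of the nucleus, was 904 CPM in hepatocyte-like cells and 6681 CPM in the others, and its part in these ratios was not tested.

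Among the uptake carriers of the Slco1 group, Slco1b2 averaged 291 CPM (287 to 295) in hepatocyte-like cells and 80.1 CPM (76.9 to 83.4) in the other classes, a 3.63-fold difference. Slco1a4, a carrier of bile acids, steroid conjugates and cardiac glycosides that is also known from the blood-brain barrier, had 16.1 CPM in hepatocyte-like cells and 4.87 CPM in the others, 3.31-fold. Slco1a1, which takes up bile acids and steroid sulfates and is known as a male-predominant carrier of mouse liver, had 6.80 CPM in hepatocyte-like cells and 1.53 CPM in the others, 4.46-fold. All 3 were higher in hepatocyte-like cells in each of the 4 libraries.

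In the Slc22 family, Slc22a7, a liver and kidney carrier of small organic anions such as nucleotides, had 2.23 CPM in hepatocyte-like cells and 0.431 CPM in the others, a log2 ratio of 2.37 (1.56 to 3.30). Slc22a18, an imprinted gene of the family, had 16.1 CPM in hepatocyte-like cells and 4.77 CPM in the others, a log2 ratio of 1.76 (1.51 to 2.02). Slc22a30, Slc22a27 and Slc22a29 belong to a rodent cluster of organic anion carriers on chromosome 19 that is known mainly from kidney. Slc22a30 had 8.56 CPM in hepatocyte-like cells and 1.29 CPM in the others, Slc22a27 1.34 and 0.133 CPM, and Slc22a29 1.06 and 0.332 CPM, with log2 ratios of 2.73 (2.26 to 3.23), 3.34 (1.94 to 5.24) and 1.67 (0.73 to 2.78). The counts of Slc22a27 and Slc22a29 outside hepatocyte-like cells were 4 and 10 UMIs, and neither call was kept in thinned cells (1.79 and 2.05), where Slc22a7 also fell short (1.54), or without cluster 3, a cluster of hepatocyte-like cells described below.

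The 4 members called lower in hepatocyte-like cells were Slco3a1, Slco2a1, Slc22a4 and Slc22a17. Slco3a1, known in human as a carrier of prostaglandins and thyroxine, had 0.25 CPM in hepatocyte-like cells and 20.02 CPM in the others, a log2 ratio of -6.32 (-7.01 to -5.71). In libraries 1 to 4 its hepatocyte-like level was 0.577, 0.119, 0.714 and 0.0653 CPM, against 34.0, 11.6, 29.9 and 15.01 CPM in the other classes, so the sides did not overlap. Slco2a1, the prostaglandin transporter, had 2.02 CPM in hepatocyte-like cells and 25.1 CPM in the others (log2 ratio -3.64), and Slc22a4, the carrier of ergothioneine, 0.363 and 7.99 CPM (-4.46). Slc22a17, known as a receptor of lipocalin-2, had 3 UMIs in hepatocyte-like cells and 101 in the others, a log2 ratio of -6.62 (-8.92 to -5.03). With 104 UMIs in all, Slc22a17 lost its call without any 1 of the libraries (-6.93 to -5.99), with a doublet score of at most 0.15 (-6.61) and with the stricter filters (-6.33), and it had no value in thinned cells. Slc22a4 lost its call without library 2 (-4.27) and in thinned cells (-3.73). Slc22a15, Slc22a23, Slco2b1 and Slc22a5, the uncalled members with the most UMIs, had log2 ratios of 0.57, 0.70, -0.74 and -0.36. Scaling by the median of ratios added Slc22a15 and Slc22a23 to the members called higher. That gave 11 of 18 higher beside 19.2% of all genes, and 4 lower beside 27.3%.

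A further 3 groups of liver genes were read beside them. Of 16 other bile acid and drug carriers that could be read, 9 were called higher and 1 lower in hepatocyte-like cells, with the largest ratios for the exporters Abcc6 and Abcc2, the bile salt export pump Abcb11 and the scaffold gene Pdzk1 (log2 ratios 2.38, 1.97, 2.07 and 2.16). Of 18 nuclear receptors and hepatocyte transcription factors, 13 were called higher and 2 lower, led by Foxa3 (2.68), Nr0b2 (2.63), Nr1i3 (2.46) and Ppara (2.26). Of 12 genes of carnitine use, 9 were called higher and none lower, led by Bbox1, the last enzyme of carnitine synthesis (2.56), Cpt2 (2.02), Acadm (1.92) and Crot (1.90).

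Slco1b2 was also counted outside hepatocyte-like cells. In T cell-like cells it had 79.4 CPM (71.8 to 87.5). The share of cells with at least 1 Slco1b2 UMI was 33.0% of hepatocyte-like cells, at a median depth of 2216 UMIs, and 14.1% of T cell-like cells, at 1960 UMIs. With each cell thinned to 1000 UMIs the shares were 16.6% (16.0 to 17.1) of 16195 hepatocyte-like cells and 6.52% (5.39 to 7.80) of 1703 T cell-like cells, leaving out 4132 and 248 shallower cells.

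The level outside hepatocyte-like cells differed between libraries. The Slco1b2 level of T cell-like cells was 1.95, 123, 41.8 and 125 CPM in libraries 1 to 4, beside 43.7, 347, 159.6 and 357 CPM in hepatocyte-like cells. In the thinned cells of library 4, 24.9% (18.6 to 32.0) of neutrophil-like cells held an Slco1b2 UMI, against 21.0% (19.9 to 22.2) of hepatocyte-like cells, while the CPM went the other way (121 in neutrophil-like and 357 in hepatocyte-like cells), and no order is read from those shares. The source of the Slco1b2 UMIs outside hepatocyte-like cells was not tested, and their levels are not read as expression. For Slco1a4, Slc22a18 and Slc22a30 the T cell-like levels were 3.35, 4.14 and 1.97 CPM.

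Slco2a1 was the leading endothelial member. It takes prostaglandins back into cells for breakdown. Sinusoidal endothelial cell-like cells, which line the liver capillaries, had 176, 179, 144 and 139.5 CPM of Slco2a1 in libraries 1 to 4, and vascular endothelial cell-like cells had 149, 22.03, 96.1 and 53.4 CPM. The vascular class joins 2 clusters whose shares differ between libraries. Cluster 17, led by Rspo3, Vwf and Wnt9b, held 109 of 180, 1 of 565, 58 of 348 and 6 of 944 vascular cells in libraries 1 to 4, and cluster 7, led by Igfbp3 and Fabp4, held the rest. Slco2a1 had 169 CPM (128 to 218) in cluster 17, with 175 and 159 CPM in libraries 1 and 3, which overlaps the sinusoidal level. In cluster 7 it had 42.3 CPM (35.9 to 49.6), with 53.5, 22.04, 73.02 and 52.6 CPM in libraries 1 to 4, each below the sinusoidal values. The vascular levels of the libraries are thus not levels of the same mix of cells. Pooled, 169.7 CPM (154 to 186) in sinusoidal cells stood against 53.4 CPM (46.5 to 61.1) in vascular cells, a log2 ratio of 1.67 (1.43 to 1.91). It was the only one of 5 readable members called higher in sinusoidal cells, where 3.78% of 7452 genes were called higher and 4.82% lower, and none of the 5 was called lower. In the same sides the hepatocyte transcript Alb was 362 CPM in sinusoidal and 1189 CPM in vascular cells, the median depth 912.5 and 1325 UMIs, and the part of these in the difference was not tested. The call ended with a doublet score of at most 0.15 (log2 ratio 1.59), with clustering at resolution 2 (0.94), with the libraries at equal weight (0.99) and in thinned cells (1.44), all in the same direction.

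Slco3a1 was spread over several non-parenchymal classes. Its level was 66.6 CPM (51.9 to 84.1) in stellate cell- or fibroblast-like cells, 65.4 CPM (46.3 to 89.7) in cholangiocyte-like cells, 47.7 CPM (39.8 to 56.8) in sinusoidal and 27.6 CPM (22.7 to 33.2) in vascular endothelial cell-like cells and 22.5 CPM (18.5 to 27.0) in T cell-like cells. The intervals of the first 3 overlap, so their order is not fixed at this depth. In stellate cell- or fibroblast-like cells the 4 libraries had 69.2, 72.9, 54.9 and 75.4 CPM. Between sinusoidal and vascular cells Slco3a1 went both ways, with 50.04, 35.8, 43.0 and 34.9 CPM in sinusoidal cells of libraries 1 to 4 and 127, 14.5, 55.5 and 16.1 CPM in vascular cells. The 2 vascular clusters lay on either side of the sinusoidal level. Cluster 17 had 171 CPM (131 to 221) of Slco3a1, with 151 and 191 CPM in libraries 1 and 3, and cluster 7 had 13.7 CPM (10.2 to 18.1), so the vascular class was high where cluster 17 was a large share of it. Of the other uncalled members in that comparison, Slco1b2 had 20.8 CPM in sinusoidal and 124 CPM in vascular cells, and Slc22a15 20.8 and 11.5 CPM.

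Slco2b1, which carries steroid sulfates and many drugs, had its highest pooled level in macrophage-like cells. Macrophage-like cells had 7.92, 53.1, 14.2 and 45.3 CPM in libraries 1 to 4, while Kupffer cell-like cells, which stand for macrophages that live in the liver, had 0, 21.2, 3.95 and 6.998 CPM. The macrophage-like value was the higher in each library, on 2 against 0 UMIs in library 1 and 8 against 1 in library 3. Pooled, 46.3 CPM (41.1 to 51.9) in macrophage-like cells stood against 6.77 CPM (3.38 to 12.1) in Kupffer cell-like cells, a 6.84-fold difference (3.76 to 13.8). Slco2b1 was the only 1 of 3 readable members called higher, beside 5.58% of 7426 genes called higher and 3.76% lower. Slco1b2, which was not called, had 106 CPM in macrophage-like cells and 31.4 CPM in Kupffer cell-like cells and went against this direction in 1 library. Library 2 held 226 of the 291 macrophage UMIs of Slco2b1, and without it the log2 ratio was 4.27 on too few UMIs for a call, as in thinned cells (3.56). In the same sides Alb was 1131 CPM in macrophage-like and 391 CPM in Kupffer cell-like cells and the median depth 1751.5 and 1439.5 UMIs, and the part of these in the difference was not tested. Stellate cell- or fibroblast-like cells came second for Slco2b1, with 30.4 CPM (20.8 to 43.0), and the macrophage-like level was above theirs in 2 of 4 libraries, so the order of these classes is not fixed.

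**Figure D2:**
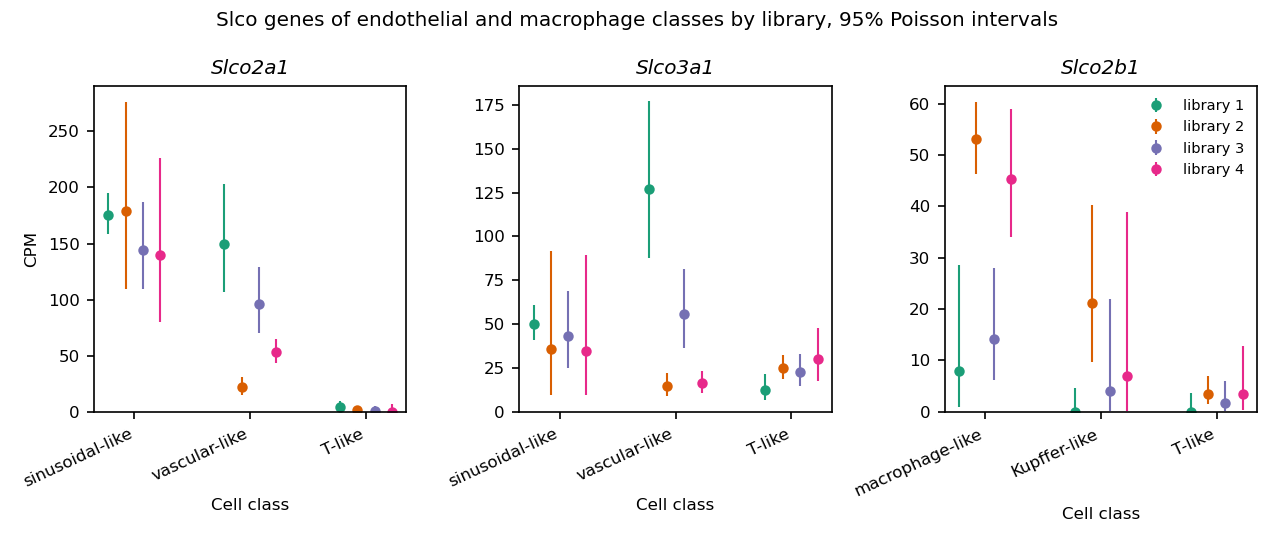
CPM of Slco2a1 and Slco3a1 in sinusoidal, vascular and T cell-like cells and of Slco2b1 in macrophage-like, Kupffer cell-like and T cell-like cells; points are single libraries and bars 95% Poisson intervals. Slco2a1 lay between 139.5 and 179 CPM in sinusoidal cells of all 4 libraries, and Slco2b1 reached 53.1 and 45.3 CPM in macrophage-like cells of libraries 2 and 4; the vascular points join clusters 7 and 17 in shares that differ between libraries.

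Smaller members had other leading classes. Slco4a1, a carrier of thyroid hormone, had 61.9 CPM (45.7 to 82.1) in plasmacytoid dendritic cell-like cells and 10.2 CPM (6.57 to 15.2) in neutrophil-like cells, the second class, a 6.05-fold difference (3.63 to 10.3). In the 3 libraries with at least 20 such cells the dendritic level was 59.6, 50.5 and 48.5 CPM, and in libraries 1 to 4 the neutrophil-like level was 5.84, 11.9, 7.61 and 11.3 CPM, so the classes did not overlap. Hepatocyte-like cells had 9 Slco4a1 UMIs, 0.102 CPM. Slc22a4 had 47.0 CPM (38.8 to 56.5) in erythroid-like cells, which are those left after lysis, and 11.9 CPM (9.38 to 14.9) in macrophage-like cells. Its erythroid-like level was 47.9 and 49.0 CPM in libraries 2 and 4, the only libraries with 20 such cells.

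Slc22a15, reported in human as a carrier of zwitterions, had 33.3 CPM (26.3 to 41.6) in neutrophil-like cells and 20.8 CPM (15.7 to 27.1) in sinusoidal endothelial cell-like cells. Its neutrophil-like level was 64.3, 17.8, 62.8 and 22.6 CPM in libraries 1 to 4, which was above the sinusoidal level of the same library each time. The neutrophil-like class joins cluster 15, led by Retnlg and S100a9, and cluster 9, led by the granule genes Elane and Mpo. Cluster 9 also had Pf4, a marker of platelets and megakaryocytes, and Prss34 among its leading genes, so it may not hold neutrophils alone. Cluster 15 held 155 of 171, 65 of 130, 336 of 352 and 71 of 212 cells of the class in libraries 1 to 4. Slc22a15 had 65.03 CPM (49.3 to 84.3) in cluster 15, with 84.5, 59.01, 65.3 and 50.9 CPM in libraries 1 to 4, and 14.3 CPM (8.87 to 21.9) in cluster 9. The libraries in which the class was high were those with the larger share of cluster 15. Slc22a3, a carrier of monoamines and other cations, had 9.39 CPM (5.89 to 14.2) in neutrophil-like cells on 22 UMIs, all of them in cluster 9, and 4.75 CPM (4.30 to 5.23) in hepatocyte-like cells. Slc22a5, the high-affinity carnitine carrier, had 12.1 CPM (8.29 to 17.1) in sinusoidal cells, 4.74 CPM (4.29 to 5.21) in hepatocyte-like cells and its lowest level, 2.13 CPM, in neutrophil-like cells. Stellate cell- or fibroblast-like cells came second for Slc22a5 with 9.51 CPM (4.56 to 17.5), and the sinusoidal level was the higher in 2 of 4 libraries. Slc22a23 had 28.1 CPM (21.8 to 35.6) in erythroid-like and 18.9 CPM (9.45 to 33.9) in cholangiocyte-like cells, and Slc22a17 had 11.7 CPM (7.04 to 18.3) in Kupffer cell-like, 8.60 CPM in cholangiocyte-like (5 UMIs) and 8.53 CPM (5.90 to 11.9) in vascular endothelial cell-like cells. The intervals overlap for Slc22a5, Slc22a23 and Slc22a17, so the leading class is not fixed at this depth.

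Within hepatocyte-like cells most members took 1 of 3 patterns over the libraries. The first was low in libraries 1 and 3 and high in libraries 2 and 4. Slco1b2 had 43.7 (39.0 to 49.0), 347 (341 to 354), 159.6 (154 to 166) and 357 CPM (350.4 to 364) in libraries 1 to 4. Slco1a4 had 1.01, 18.4, 1.96 and 24.8 CPM, Slc22a3 0.289, 3.59, 0.595 and 9.31 CPM and Slc22a5 0.433, 6.86, 2.14 and 4.80 CPM. Slco2b1, Slc22a18 and Slc22a23 were likewise highest in library 2, with 11.5, 20.8 and 19.1 CPM, and lowest in library 1, with 2.17, 6.496 and 4.04 CPM. Libraries 2 and 4 were also those with the deepest hepatocyte-like cells, and their hepatocyte-like Malat1 level, an RNA of the nucleus, was 1109 and 856 CPM, against 88.1 CPM in library 1 and 916 CPM in library 3. The part of depth and nuclear RNA in these levels was not tested.

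The second pattern ran the other way. Slco1a1 had 22.2 (18.9 to 26.0), 0.178 (0.0654 to 0.388), 21.8 (19.7 to 24.2) and 2.35 CPM (1.84 to 2.96) in libraries 1 to 4. Its levels in libraries 1 and 3 did not differ beyond counting error, and library 2 held only 6 UMIs of it. Slc22a7, with 2.02, 1.78, 4.88 and 1.31 CPM, and Slco2a1, with 4.04, 1.40, 5.29 and 0.457 CPM, were highest in library 3 and lower in libraries 2 and 4 than in library 1. For Slc22a7 the library 1 value rests on 14 UMIs (1.10 to 3.39), an interval that covers its values in libraries 2 and 4. Slco2a1 was far higher in sinusoidal endothelial cell-like cells (169.7 CPM), of which libraries 1 to 4 held 1904, 55, 363 and 72. The source of the Slco2a1 UMIs in hepatocyte-like cells was not tested. The third pattern was that of Slc22a15, which stood at 35.9 CPM (31.6 to 40.7) in library 1 and at 13.5, 16.8 and 16.1 CPM in libraries 2 to 4. Slc22a30 followed none of these, with 6.93, 4.01, 17.8 and 8.88 CPM in libraries 1 to 4. The summed level of all members was 157, 581, 317 and 578 CPM. Of the 14 members with at least 100 UMIs in hepatocyte-like cells, 2, 6, 3 and 3 were highest in libraries 1 to 4, while 16.3%, 62.5%, 6.99% and 14.2% of all 11156 such genes were.

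**Figure D3:**
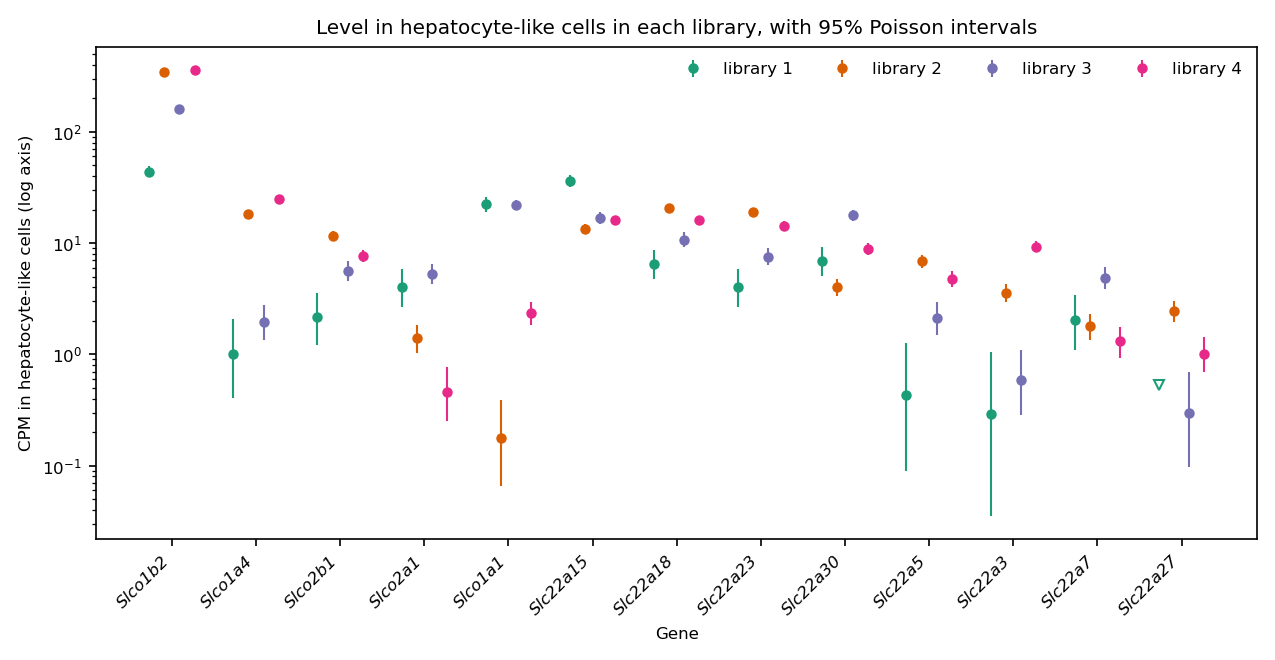
CPM of 13 members in hepatocyte-like cells of libraries 1 to 4 on a log axis; points are libraries, bars 95% Poisson intervals, and the open triangle marks the upper limit of a gene with 0 UMIs. Slco1b2 and Slco1a4 were highest in libraries 2 and 4, and Slco1a1 was highest in libraries 1 and 3 (22.2 and 21.8 CPM) and lowest in library 2 (0.178 CPM).

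Hepatocyte-like cells fell into 9 clusters, which were built without the members and without the state lists. The members' summed level ran from 103 CPM in cluster 12 and 147 CPM in cluster 4 to 949 CPM in cluster 23 and 2800 CPM in cluster 3. Cluster 23 led with Afp, the fetal and carcinoma gene, and H19, and had 602 CPM (592 to 613) of Slco1b2. Afp was 622 CPM in clusters 23 and 3 alike. Cluster 23 also had the second highest Malat1 (1183 CPM) and Alb (4610 CPM) levels, after cluster 3. The part of these in the members' levels of cluster 23 was not tested. Its Slco1b2 level was 462, 990.2 and 817 CPM in libraries 2 to 4. Clusters 20, 21 and 19, which led with Oat and Glul or with Sult2a2, had 214, 141 and 93.2 CPM of Slco1b2. Clusters 5, 12 and 11, which lay mostly in library 3, had 106, 37.9 and 179.7 CPM, and cluster 4, of which 3576 of 4209 cells were from library 1, had 43.2 CPM. Pooled over the libraries, Slco1a1 was highest in clusters 5 and 11, with 33.6 and 28.9 CPM. It had 0.278 CPM in cluster 21, of which 2002 of 2770 cells were from library 2. Within library 3 the order differed, with 103 CPM (67.9 to 150) of Slco1a1 in cluster 3 on 27 UMIs. Clusters 5 and 11 had 31.1 and 28.5 CPM there. The pooled order of clusters thus also carries their mix of libraries.

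Cluster 3 stood apart. Its 583 cells, 325, 80 and 178 of them from libraries 2 to 4, led with Gm26917 and the nuclear RNA Neat1, had 15357 CPM of Malat1 and a median of 10.3% mitochondrial UMIs, and also had the highest Alb level of the 9 clusters (10570 CPM). Slco1b2 had 1600.0, 1366 and 2511 CPM in cluster 3 in libraries 2 to 4, and 278, 140.5 and 290.0 CPM in the other hepatocyte-like cells, so the sides did not overlap. Pooled, it was 1863 CPM (1815 to 1913) in cluster 3 and 236 CPM in the others, 7.89-fold (7.66 to 8.13).

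The largest ratios in cluster 3 were those of Slc22a5 (52.3 CPM in cluster 3 and 3.08 CPM in the others, 17.0-fold), Slc22a30 (85.0 and 5.90 CPM, 14.4-fold), Slco1a4 (139 and 11.8 CPM, 11.8-fold) and Slc22a23 (112 and 10.6 CPM, 10.5-fold). Of the 14 members read, 11 were called higher in cluster 3 and none lower, beside 42.2% of all 11156 genes higher and 15.3% lower. The median log2 ratio was 2.71 for the members and 0.79 for all genes. Slc22a15 stood at 18.2 CPM in cluster 3 and 16.8 CPM in the others. Of the other bile acid and drug carriers 14 of 16 were called higher and none lower, of the nuclear receptors and hepatocyte factors 8 of 18 higher and 1 lower, and of the genes of carnitine use 1 of 11 higher and 1 lower. What sets these cells apart was not tested, and each state comparison below was also made without them.

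**Figure D4:**
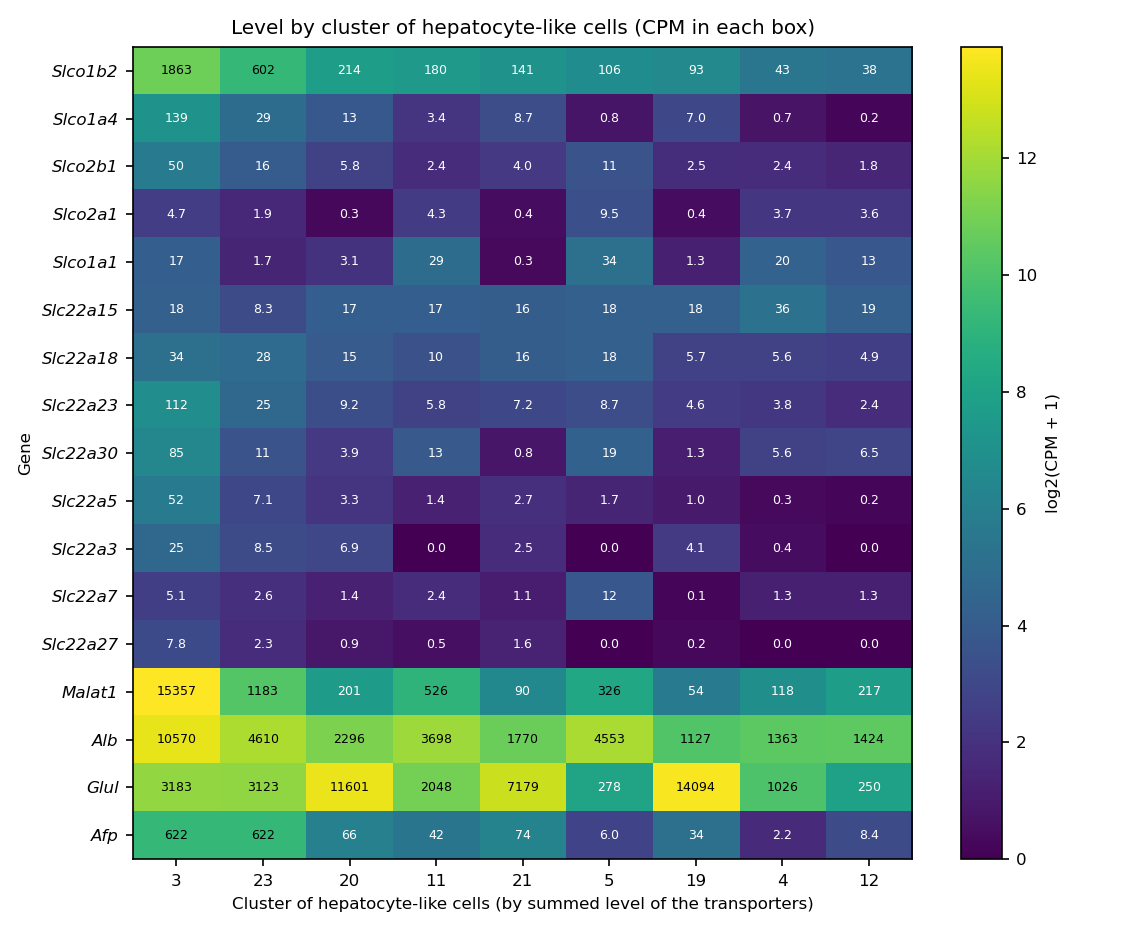
Level of 13 members and of Malat1, Alb, Glul and Afp in the 9 clusters of hepatocyte-like cells, ordered by the members' summed level; each box gives the CPM and its colour log2(CPM + 1). Cluster 3 had the highest Slco1b2 (1863 CPM), Malat1 (15357 CPM) and Alb levels, and cluster 23 the second highest Slco1b2 level (602 CPM).

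Along a score of the zonation axis of the liver lobule, most members that could be read were higher at its pericentral end. Within each library, hepatocyte-like cells were ranked by a score of 12 pericentral genes such as Glul and Cyp2e1 minus 12 periportal genes such as Ass1 and Sds, and the top and bottom 25%, 5080 cells each, were compared. These are ranges of a score and not cell types, with 2779 cells within 0.1 SD of a limit. No place in the lobule was measured, so pericentral and periportal name the ends of the score. The 12 pericentral genes together had 2334, 13835, 3250 and 27708 CPM in hepatocyte-like cells of libraries 1 to 4. Of 13 members, 8 were called higher in pericentral cells, beside 2.67% of 10356 genes, and 1 was called lower, beside 1.29% of all genes. The median log2 ratio was 1.15 for the members and -0.05 for all genes.

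Slco1b2 had 107, 606, 454 and 732 CPM in pericentral cells of libraries 1 to 4, and 17.5, 217, 39.0 and 190.3 CPM in periportal cells. It was higher in pericentral cells in every library, and the pooled log2 ratio was 1.91 (1.86 to 1.96). Slco1a4 had 2.56, 31.8, 6.15 and 48.8 CPM in pericentral cells and 0.945, 12.1, 0.165 and 11.7 CPM in periportal cells, and a log2 ratio of 1.87 (1.65 to 2.09).

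The largest difference was that of Slc22a3, with 241 UMIs in pericentral and 25 in periportal cells. Its level was 1.28, 10.5, 2.22 and 18.8 CPM in pericentral cells of libraries 1 to 4, and 0, 0.685, 0 and 2.02 CPM in periportal cells. The counts in libraries 1 and 3 were 2 and 9 UMIs in pericentral cells and none in periportal cells, so most of the pooled log2 ratio of 3.69 (3.09 to 4.35) comes from libraries 2 and 4. Slc22a30, Slc22a5, Slc22a23 and Slco1a1 were also called higher, with 15.7, 7.87, 22.9 and 10.2 CPM in pericentral cells, 5.38, 3.12, 10.3 and 5.03 CPM in periportal cells and log2 ratios of 1.54, 1.34, 1.15 and 1.03. Slc22a7 was the member called lower, with 1.28 CPM in pericentral and 3.12 CPM in periportal cells on 27 and 88 UMIs, a log2 ratio of -1.28 (-1.96 to -0.65). Slc22a18, Slc22a15, Slco2b1 and Slco2a1 were not called, with log2 ratios of 0.67, 0.35, 0.85 and -0.75.

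Pericentral cells also had more Malat1 (1445 CPM against 639 CPM in periportal cells), more Alb (4068 against 2372 CPM), a shallower median depth (1999 against 2888 UMIs) and a larger share in cluster 3 (4.31% against 2.5%). Without cluster 3 the log2 ratios were 1.79 for Slco1b2, 1.63 for Slco1a4 and 3.74 for Slc22a3, and Slco1a1 at 0.85 no longer passed, as also without library 2 (0.87), at equal weight of the libraries (0.86) and in thinned cells (0.66). With 27 and 88 UMIs, Slc22a7 lost its call without library 2 (-1.73), library 3 (-1.23) or library 4 (-0.80), and Slc22a3 fell under the minimum of UMIs without library 4 (4.08). Among the other bile acid and drug carriers 5 of 15 were called higher and 1 lower. Abcc4, Abcc6 and Abcc2, which export anion conjugates, had log2 ratios of 2.24, 1.36 and 1.16, and Slc51b, a subunit of the basolateral bile acid exporter, -2.34. None of 18 nuclear receptors and hepatocyte factors and none of 11 genes of carnitine use was called in either direction.

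**Figure D5:**
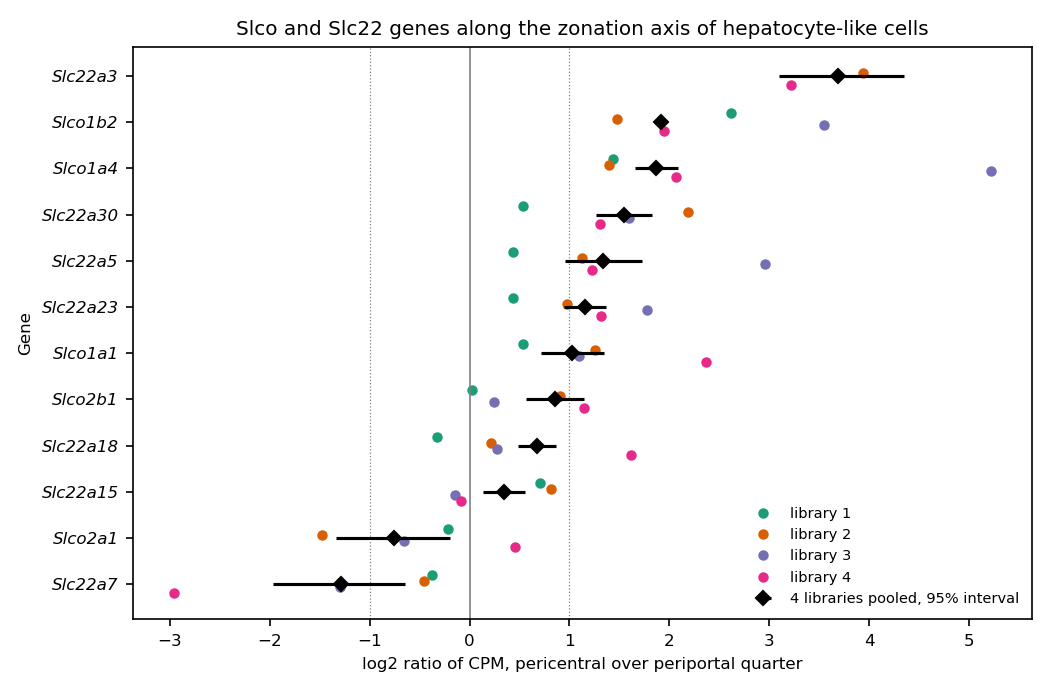
log2 ratio of CPM in the pericentral over the periportal 25% of hepatocyte-like cells for 12 members; coloured points are libraries 1 to 4, diamonds the pooled ratio with its 95% interval, and dotted lines mark a 2-fold difference. Slc22a3, Slco1b2 and Slco1a4 lie furthest to the pericentral side (3.69, 1.91 and 1.87) and Slc22a7 to the periportal side (-1.28); libraries in which Slc22a3 had no periportal UMI have no point.

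Between hepatocyte-like cells with and without Afp, Slco1b2 went different ways in different libraries. Cells thinned to 1000 UMIs with at least 1 Afp UMI, 675 cells of libraries 2 to 4, were set against 12545 cells with none. Slco1b2 had 221, 377 and 599 CPM in Afp-positive cells of libraries 2 to 4 and 362, 152 and 339 CPM in Afp-negative cells, lower in library 2 and higher in libraries 3 and 4. Pooled, Slco1b2 had 334 CPM in Afp-positive and 310.0 CPM in Afp-negative cells, a value that covers these opposite directions. Of 14 members, none was called higher, beside 6.22% of 11008 genes, and Slc22a30 was called lower, beside 2.42% of all genes. It had 1.82, 8.19 and 8.73 CPM in Afp-positive cells of libraries 2 to 4 and 4.33, 17.9 and 8.98 CPM in Afp-negative cells, so the sides differed hardly at all in library 4, and the pooled log2 ratio was -1.14 (-1.81 to -0.54). Its call ended without library 2 (-0.48), without library 3 (-0.78), at equal weight of the libraries (-0.74) and in thinned cells (-1.01). Without library 2, 5 of 12 members were called higher in Afp-positive cells, Slco1b2, Slco1a4, Slc22a5 and Slc22a23 among them, beside 5.92% of 9846 genes. Slc22a18 and Slco1a4 were not called, with log2 ratios of 0.57 and -0.28. In Afp-positive cells 7.64% were of cluster 3, against 3.35% of Afp-negative cells.

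Cycling cells, with at least 2 UMIs of 18 proliferation genes in the thinned cell, were 1398 and were set against 10124 cells with none in libraries 2 to 4. Slco1b2 had 267, 263 and 334 CPM in cycling cells of libraries 2 to 4 and 387.5, 141 and 366 CPM in non-cycling cells, so it did not go 1 way in all libraries. Of 13 members none was called higher, beside 13.9% of 10784 genes, and 2 were called lower, beside 2.7% of all genes. Slc22a15 had 7.85, 4.65 and 10.6 CPM in cycling cells of libraries 2 to 4 and 15.8, 17.3 and 16.9 CPM in non-cycling cells, which do not overlap, with a log2 ratio of -1.02 (-1.34 to -0.71). Slc22a3 had 1.45, 0 and 7.05 CPM in cycling cells and 4.73, 0.450 and 9.53 CPM in non-cycling cells, with a log2 ratio of -1.22 (-1.83 to -0.66) that turned to 0.16 in thinned cells. Without library 2 neither passed (-0.88 for Slc22a15 and -0.21 for Slc22a3), nor did Slc22a15 without library 3 (-0.96) or Slc22a3 at equal weight of the libraries (-0.79). Slco1a4 and Slc22a18, with log2 ratios of -0.44 and 0.24, were not called. The median log2 ratio of all genes was 0.35 here, and cycling cells were deeper, with a median of 4416 UMIs against 2863 in non-cycling cells.

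Slc22a7 was the 1 member called with the acute-phase score. Within each library, hepatocyte-like cells were ranked by 6 acute-phase genes such as Saa1 and Orm1, and the top and bottom 25% were compared. Slc22a7 had 3.47, 2.89, 9.85 and 2.71 CPM in acute-phase-high cells of libraries 1 to 4 and 1.43, 0.790, 1.74 and 0.597 CPM in acute-phase-low cells, so it was higher in every library and the sides did not overlap. The pooled log2 ratio was 2.21 (1.43 to 3.09), on 119 and 15 UMIs. No other of the 13 members was called, beside 1.11% of 10059 genes higher and 1.4% lower. The call of Slc22a7 ended without library 3 (1.87), between the top and bottom 10% (1.91) and in thinned cells (1.46). Slco1b2 had 31.8, 396, 88.4 and 411 CPM in acute-phase-high cells and 66.5, 311, 399.6 and 379 CPM in acute-phase-low cells, which differ in direction between libraries. Slco1a4 had 15.9 CPM in acute-phase-high and 17.1 CPM in acute-phase-low cells, and Slc22a18 24.0 and 12.5 CPM. The median log2 ratio of all genes was -0.27 here, and Slc22a18, at 0.94, was called higher with that shift taken out by the median of ratios, without library 2, without library 3 and between the top and bottom 10%. Slco2b1 was called higher with the stricter filters. In this split 6473 cells lay within 0.1 SD of a limit, acute-phase-high cells were deeper (median 2790 against 1514 UMIs) and fewer were of cluster 3 (2.01% against 4.0%). Slc22a7 was thus higher in acute-phase-high and in periportal cells, on 210 UMIs in all analysed cells. The 2 scores moved together, so these are not 2 separate results. The 12 periportal genes had a median log2 ratio of 1.00 in acute-phase-high cells, with 3 called higher and 0 lower. At the pericentral end the 13 genes of the acute-phase list had a median of -0.69.

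The 12 members with 1 to 99 UMIs were Slc22a21 (43), Slc22a26 (24), Slco5a1 (21), Slco4c1 (17), Slc22a28 (16), Slc22a12 (15), Slc22a13 (5), Slc22a20 (5), Slc22a8 (4), Slc22a6 (2), Slco1a6 (2) and Slco1c1 (2). Among them Slc22a21, a carnitine carrier next to Slc22a5, had 20 of 43 UMIs in conventional dendritic cell type 1-like cells, 9.19 CPM (5.61 to 14.2). In a transcript set of another annotation (GENCODE M21), 66.1% of 91-base windows in the last 500 bases of Slc22a21 also occur in Slc22a5, so that the division of reads between this pair is uncertain. The same holds for Slc22a28 and Slc22a30, with 27.6% of windows of Slc22a28. Slc22a12, the urate carrier of kidney, had 9 of its 15 UMIs in hepatocyte-like cells and 6 in plasmacytoid dendritic cell-like cells. Its level was 0.102 CPM in hepatocyte-like and 7.74 CPM (2.84 to 16.9) in plasmacytoid dendritic cell-like cells. Slc22a6 and Slc22a8, the main organic anion carriers of kidney, had 2 and 4 UMIs, all in hepatocyte-like cells.

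No UMI was counted in the analysed cells for Slco1a5, Slco6c1, Slco6d1, Slc22a2, Slc22a14, Slc22a16, Slc22a19 and Slc22a22. Slc22a2 is the cation carrier of kidney. On chromosome 19, in the RefSeq gene table of GRCm38.p6, 8 members lie in a row, Slc22a19, Slc22a26, Slc22a27, Slc22a28, Slc22a29, Slc22a30, Slc22a8 and Slc22a6, and had 0, 24, 124, 16, 104, 796, 4 and 2 UMIs. Of these, the 3 with at least 100 UMIs were each called higher in hepatocyte-like cells than in the other classes, as were 13.7% of all genes, and the calls of Slc22a27 and Slc22a29 were lost in thinned cells and without cluster 3.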

How the data were processed

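Single-cell RNA of 4 mouse liver samples was analysed from 1 matrix of UMI counts that the authors deposited, made with Cell Ranger 6.0.1 per the file headers. The labels name the mm9 build. Barcodes with at least 200 genes, at least 500 UMIs and under 20% mitochondrial UMIs were kept, and those with a Scrublet score over 0.25 (scanpy 1.11.5, expected rate 8%) were removed as doublets. Counts were scaled to 10000 per cell and logged, and 2000 variable genes, without the members and the gene lists, 30 components and 15 neighbours gave Leiden clusters at resolution 1, named from markers. Levels are UMIs per 1000000 with exact Poisson intervals, ratios have exact binomial intervals, and shares Clopper-Pearson intervals, at 95%. No test between samples was possible, since barcode suffixes are paired with no sample. Code was tested on simulated data. The tools were Python 3.11.15, numpy 2.4.6, scipy 1.17.1, pandas 2.3.3, scikit-learn 1.9.0, igraph 0.11.9 and matplotlib 3.10.9.

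The members, gene lists and comparisons were chosen with earlier results of these data known. Named with values were members with at least 100 UMIs, in each comparison those called and up to 4 not called with the most UMIs, and up to 4 called genes of each other list. For 1 member that the counts and summed levels include, values are not reported here. Clusters named within a class, and members called under an alternative alone, were chosen after their values were seen. Alternatives changed the filters, doublet limit, clustering, scaling, library weights, depth, minimum of UMIs and score limits, and left out each library in turn. Leaving out cluster 3 was an alternative added after seeing the data.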

Additional observations from a re-analysis of the deposited data

Results flagged for a closer look

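Of the 12 members with 1 to 99 UMIs, 5 were counted in 1 class alone. The share of all genes with so few UMIs that lie in 1 class alone is not given. This count is therefore not read as a trait of the members. For 3 of them this rests on 2 to 4 UMIs, Slc22a8 (4) and Slc22a6 (2) in hepatocyte-like cells and Slco1a6 (2) in cholangiocyte-like cells. Slco4c1, known from kidney as a carrier of thyroid hormone and digoxin, had 17 UMIs in the analysed cells, all 17 in neutrophil-like cells. They came from 15 cells and gave 7.26 CPM (4.23 to 11.6), with 10 UMIs in cluster 9 and 7 in cluster 15. Slc22a20 had 5 UMIs, all 5 in neutrophil-like cells, 2.13 CPM (0.693 to 4.98). The hepatocyte-like cells, which held most UMIs of the matrix, had none of either gene. These counts stand apart from the comparisons, which ask for at least 100 UMIs, and were not tested.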

How the results depend on the processing

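Of 284 alternatives to a count or summary value, 239 stayed within 1.5 times of it and 45 moved, and of 426 alternatives to a single ratio 374 kept direction and call, 51 lost the call and 1 turned. With at least 500 genes, 1000 UMIs and under 10% mitochondrial UMIs, 0 members were lower in pericentral cells, 2 lower in Afp-positive cells and 2 higher in acute-phase-high cells. No member (0) was higher in sinusoidal cells with a doublet score of at most 0.15, at resolution 2, or at equal weight of the libraries, which also left 0 lower in Afp-positive and 1 lower in cycling cells. The median of ratios gave 2 lower in Afp-positive and 2 higher in acute-phase-high cells. In cells thinned to 1000 UMIs, 2 members were lower in hepatocyte-like cells, 0 higher in sinusoidal and 0 in macrophage-like cells, 5 higher and 0 lower in pericentral cells, 1 higher and 0 lower in Afp-positive cells, 1 lower in cycling cells and 0 higher in acute-phase-high cells, 1 was highest in library 1 and 1 in library 4, and Slc22a3 turned to a log2 ratio of 0.16 in cycling cells. Thinning leaves fewer UMIs under the same minimum of 100. A minimum of 20 UMIs gave 1 member lower in sinusoidal cells and 2 higher and 1 lower in macrophage-like cells. Between the top and bottom 10%, 0 were lower in pericentral cells. A limit of 3 Afp UMIs gave 3 lower, and of 4 cycling UMIs 4 lower. Why the other values moved was not tested.

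Leaving out each library in turn gave these lowest and highest counts. In hepatocyte-like cells 7 to 9 members were higher and 2 to 3 lower than in other classes. In sinusoidal cells 1 was higher and 0 to 1 lower, and in macrophage-like cells 0 to 2 were higher. In pericentral cells 7 to 8 were higher and 0 to 1 lower, in Afp-positive cells 0 to 5 higher and 0 to 2 lower, in cycling cells 0 to 1 higher and 0 to 3 lower, and in acute-phase-high cells 1 to 2 higher. Hepatocyte-like cells led for 6 to 7 members and sinusoidal cells for 2 to 3. Libraries 1 to 4 were highest for 2 to 3, 6 to 8, 3 to 5 and 3 to 8 members, and cluster 3 for 9 to 10. The endothelial and macrophage comparisons gave no value at resolution 0.5. No paired analysis was possible because no source pairs a barcode suffix with a sample.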
